A study of Mus musculus with 4 samples.

Results

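Translation initiation, elongation and termination factors were represented in the CA1 neuropil by 47 of 9296 listed polyA sites and 36 of 7202 gene names. The members were the rows whose gene name starts with Eif or Eef followed by a digit, or with Gspt followed by a digit, or is Etf1. CA1 is a field of the hippocampus, and its neuropil is the layer that holds the dendrites of the pyramidal neurons together with axons and glia. The data came from 1 group of 4 replicates of microdissected CA1 neuropil from C57BL/6 mice that carry Camk2a-Cre and the Pabpc1-cTag allele, and no other genotype, treatment or region was analysed here. Cre driven by the Camk2a promoter switches on a GFP tag on the cytoplasmic poly(A)-binding protein PABPC1 in excitatory neurons. In cTag-PAPERCLIP the tagged protein is crosslinked to mRNA, pulled down and sequenced with the RNA next to the poly(A) tail, so that each tag marks the 3′ end of an mRNA. Each replicate pooled several mice, and the age of the animals was not given in the labels. With 1 group there was no comparison between conditions, and the values describe how the factors' 3′ ends were spread over genes, sites and replicates.

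Initiation factors bring the initiator tRNA, the small ribosomal subunit and the mRNA cap together and find the start codon. Elongation factors then deliver aminoacyl-tRNAs and move the ribosome along the message, and termination factors release the finished protein. In neurons, mRNAs for parts of this machinery are known to be found in dendrites, where proteins are made away from the cell body.

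The sites that carried most of the factor tags are shown by 30 bases of the genome placed on the polyA signal nearest to each, read from the RefSeq copy of GRCm38 (mm10), in the coordinates of that build and written 5′ to 3′ on the strand of the gene. Capitals mark the polyA signal, the hexamer AATAAA or ATTAAA that directs cleavage of the pre-mRNA. The first 5 are the factor sites with the most tags under their own gene name, and the last 2 are the 3′ ends of Eef2 and Eef1b2, which the table lists under the names of small nucleolar RNAs (snoRNAs).
Eef1a2, chr2:181147693-181147722, minus strand: gcccgttttcccAATAAActgagcgacccc
Eif1b, chr9:120495278-120495307, plus strand: ttgcggcttaacAATAAAaagaaagtgtgc
Eif4h, chr5:134619882-134619911, minus strand: aatgatcttttaAATAAAagagaaccttac
Eef1d, chr15:75895491-75895520, minus strand: ggacctgctgagATTAAAgactgagactct
Eif3f, chr7:108941650-108941679, plus strand: cttgtgactccaAATAAAcatagcttacct
Eef2 (listed as Snord37), chr10:81182462-81182491, plus strand: aatcattggagtAATAAActacagtggttg
Eef1b2 (listed as Snora41), chr1:63179625-63179654, plus strand: tcagtgcacttaAATAAAagcttgaaagat
All 7 sites lie in annotated 3′UTRs. The listed position falls inside the window at 6 of them and 2 bases before it at Eef1b2. AATAAA was the hexamer in 6 of them and ATTAAA in Eef1d.

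The 4 replicates held 16016, 6609, 5947 and 6099 tags. A gene without a tag in a replicate may hold up to 0.0187%, 0.0454%, 0.0504% and 0.0492% of replicates 1 to 4 (3 tags of the total), and these limits and all Wilson 95% intervals cover counting error only, since tags need not be independent molecules. Replicate 1 stood apart from the others. Sites resembling the noncoding RNA Bc1 took 32.9% of its tags, against 11.8%, 2.59% and 2.07% in replicates 2 to 4, and sites named Hdac8 alone took 25.2%. Pyramidal neuron markers held 186 tags (8 of 10 genes with a row) at 0.257% to 0.674% of a replicate. Camk2a and Slc17a7 had no row under their own names, but 215 and 23 tags lay at sites inside those annotated genes, and the list held 423 tags by location. Markers of other cells were present as well, with 100 tags for oligodendrocytes (6 of 6 genes), 75 for astrocytes (8 of 8), 48 for interneurons (5 of 8), 126 for erythroid cells (3 of 6), 9 for microglia (2 of 6) and 1 for endothelial cells (1 of 4). By location the interneuron list held 32 tags, with Npy at 5 in place of 22, the microglia list 12, and the other 4 lists the same numbers as by name. Less RNA per cell and fewer cells of a type cannot be told apart in these pooled tissues. Since the tag on PABPC1 was switched on in excitatory neurons, marker tags of other cells need not follow cell numbers. How those tags came into the libraries was not tested.

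The factors named in the table held 111 tags, of which 43, 23, 27 and 18 were in replicates 1 to 4. Their share of a replicate's tags was 0.268% (Wilson 95% interval 0.199% to 0.361%), 0.348% (0.232% to 0.522%), 0.454% (0.312% to 0.660%) and 0.295% (0.187% to 0.466%), with a mean of 0.341% ± 0.0820 (SD, n = 4). Replicate 3 was highest and replicate 1 lowest, and the 4 intervals overlapped. The mean was 0.366% without replicate 1 and 0.390% of totals that leave out the Bc1-like sites. Most factor genes were seen a few times at most: the median was 2 tags per gene, the same as over all genes of the table, and 15 of the 36 (41.7%) had a single tag, against 43.7% of all genes. Tags in more than 1 replicate were found for 20 of 36 genes (55.6%), against 47.4% of all genes. Only Eef1a2 and Eef1d were seen in all 4 replicates. By the annotated gene at the site it was Eef1d alone, since the replicate 3 tags of Eef1a2 lay past the end of the gene.

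**Figure D1:**
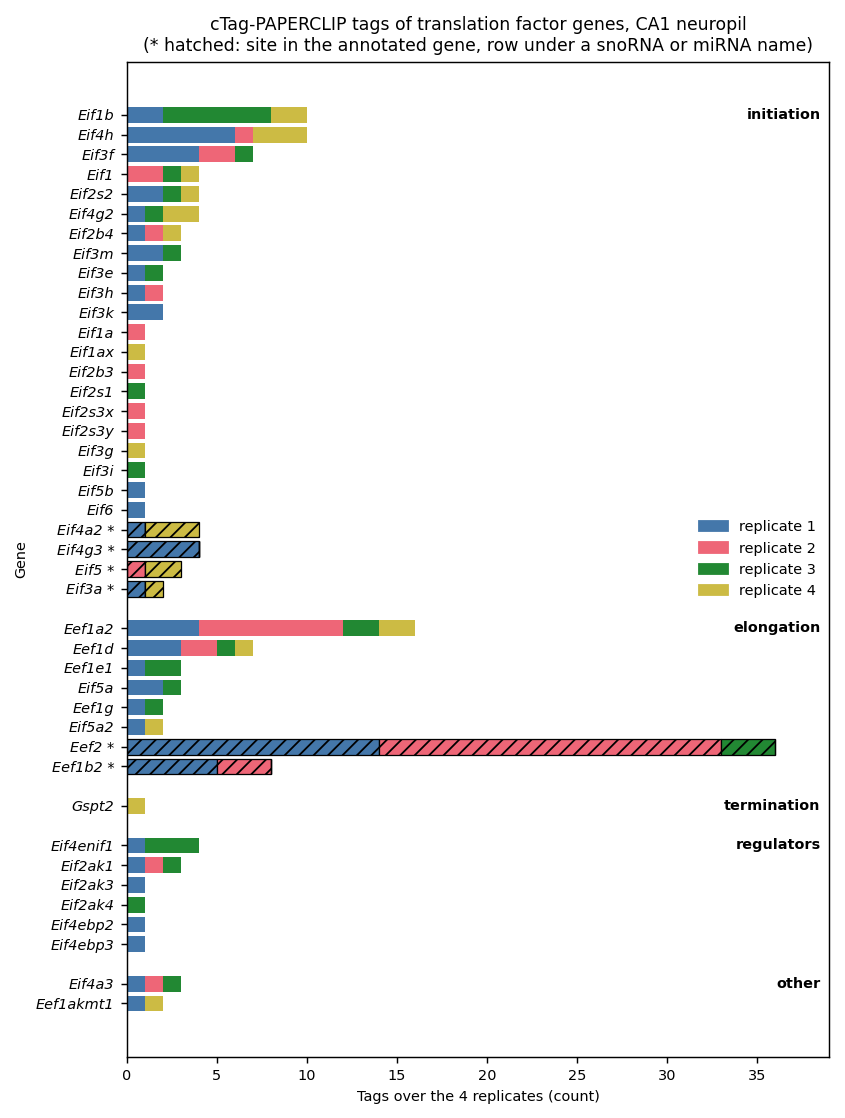
Tags of each translation factor gene (x axis, count over the 4 replicates) by role, with bar segments coloured by replicate; hatched bars marked with an asterisk are sites inside an annotated factor gene that the table lists under a snoRNA or miRNA name. Eef2 held 36 tags and Eef1a2 16, while most other genes held 1 to 4.

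Under their listed names, elongation factors were led by Eef1a2, the eEF1A isoform of neurons and muscle that delivers aminoacyl-tRNA to the ribosome. It had the most tags of any factor under its own name, with 4, 8, 2 and 2 tags in replicates 1 to 4, or 0.0531% ± 0.0455 (SD, n = 4) of a replicate. Replicate 2 was highest, at 0.121% of its tags, and the other 3 replicates lay between 0.0250% and 0.0336%. Without replicate 2 the mean was 0.0305%. Of the 16 tags, 11 lay at the 3′UTR site shown above, 53 bases upstream of the annotated end of the gene, with 2, 7, 0 and 2 tags. The other 5 lay at 3 sites 619, 1353 and 5829 bases past that end, outside any annotated gene and without a polyA signal within 50 bases. The site at 1353 bases past the end had 3 of them and was the only one of the 3 seen in more than 1 replicate, with 1 tag in replicate 2 and 2 in replicate 3. The other eEF1A gene, Eef1a1, had no row analysed here.

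In the eEF1B list 3 genes had a row under their own names, and together they held 12 tags. Eef1d, the delta subunit of the complex that recharges eEF1A with GTP, had 3, 2, 1 and 1 tags and a share of 0.0206% ± 0.00655, the smallest spread among the 5 genes with the most tags. Its site was the only factor site with tags in all 4 replicates. The 41 bases around that site occur at 2 places in the genome, and whether its tags came from one or both was not tested. Eef1g, the gamma subunit, had 2 tags, in replicates 1 and 3. Eef1e1, which encodes an accessory protein of the aminoacyl-tRNA synthetase complex, had 1 tag in replicate 1 and 2 in replicate 3. The eIF5A genes, whose product helps the ribosome through difficult stretches and acts mainly in elongation, had 3 tags for Eif5a (2, 0, 1 and 0) and 2 for Eif5a2 (1, 0, 0 and 1). In all, 6 of the 10 genes grouped under elongation, which include Eef1e1 and the eEF2 kinase gene Eef2k, had a row under their own name, with 33 tags and 0.102% ± 0.0397 of a replicate. Without Eef1e1 it was 30 tags and 0.0924% ± 0.0401. The only termination factor with a row was Gspt2, one of the eRF3 GTPases, with 1 tag in replicate 4.

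Eef2, the GTPase that moves the ribosome along by a codon, had no row under its own name. A site 24 bases upstream of its annotated end, in its 3′UTR, was listed as Snord37, a snoRNA encoded in an intron of Eef2. It held 14, 19, 3 and 0 tags, more in all than any factor in the table under its own name. As a share this was 0.0874%, 0.287%, 0.0504% and 0% of replicates 1 to 4, with a mean of 0.106% ± 0.126 (SD, n = 4), and 0.0460% without replicate 2. With 0 tags, its share in replicate 4 may reach 0.0492%. Replicates 1 and 2 held 33 of the 36 tags.

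The same naming was found for 7 other sites. Eef1b2, the catalytic beta subunit of eEF1B, was listed as Snora41 with 5, 3, 0 and 0 tags, so that its tags were in replicates 1 and 2 only. Eif4a2, an RNA helicase of the cap-binding complex, was listed as Snora81 with 1, 0, 0 and 3 tags. Eif4g3, a scaffold of that complex, was listed as Mir6399 at 2 sites with 2 tags each, all in replicate 1. Eif5, which triggers GTP hydrolysis by eIF2 at the start codon, was listed as Snora28 at 2 sites, with 2 tags in replicate 4 at one and 1 tag in replicate 2 at the other. Eif3a, the largest eIF3 subunit, was listed as Mir3084-2 with 1 tag each in replicates 1 and 4. All 8 sites lay in the 3′UTR of the factor gene on its strand, had a polyA signal within 50 bases, and occur at 1 place in the genome by their 41 bases. The table has 493 sites with snoRNA or miRNA names, with 2070 tags (5.97% of all), and 374 of the sites (75.9%) lie in the 3′UTR of another annotated gene.

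Taking the gene from the annotation at each site in place of the listed name gave 49 factor sites in 41 genes, with 160 tags. The share was then 0.400%, 0.681%, 0.471% and 0.377% of replicates 1 to 4, with a mean of 0.482% ± 0.138. Replicate 2 was then the highest, where replicate 3 was the highest by name. The share of elongation factors was 0.213% ± 0.177 by location, against 0.102% ± 0.0397 by name, with 29, 31, 8 and 4 tags in replicates 1 to 4. Without replicate 2 the share by location was 0.127%, and that by name 0.0861%. Oligodendrocyte markers were also highest in replicate 2, at 0.281%, 0.545%, 0.185% and 0.131% of replicates 1 to 4, but without Mbp, which held 55 of their 100 tags, at 0.156%, 0.136%, 0.0841% and 0.0984%, and their part in the elongation factor values was not tested.

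**Figure D2:**
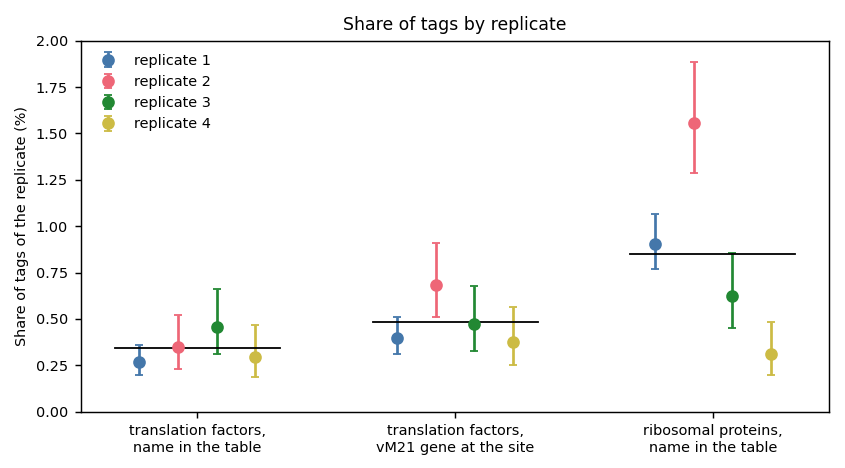
Share of a replicate's tags (y axis, %) for factor sites by listed name, factor sites by annotated gene and ribosomal protein sites by listed name; points are replicates, bars Wilson 95% intervals and lines means. The intervals of the 4 replicates overlap for factors by name, while ribosomal proteins range from 0.312% in replicate 4 to 1.56% in replicate 2.

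Initiation factors held 61 tags under their own names, at 27 sites of 21 of the 44 annotated genes, with 24, 11, 14 and 12 tags in replicates 1 to 4 and 0.187% ± 0.0376 of a replicate. Among the scanning factors, which keep the small subunit open while it searches for the start codon, Eif1b had 2, 0, 6 and 2 tags (0.0365% ± 0.0450). Replicate 3 held 6 of its 10 tags, and without it the mean was 0.0151%. The paralogue Eif1 had 0, 2, 1 and 1 tags, and its 41 bases occur at 3 places in the genome. The log2 ratio of Eif1 over Eif1b, with 0.5 tags added to each, was −2.32, 2.32, −2.12 and −0.74 in replicates 1 to 4, with a mean of −0.71 ± 2.14 (SD) and a two-sided exact sign-flip permutation p of 0.625 over the 4 replicates. The ratio was above 0 in replicate 2 only, where Eif1 had 2 tags (0.0303%) and Eif1b 0. With 0 tags Eif1b may reach 0.0454% there, so a change of order between replicates was not shown. Of 10 paralogue pairs, only this 1 had a row for each gene and 10 tags between them. Eif1a had 1 tag in replicate 2 and Eif1ax 1 tag in replicate 4.

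In the cap-binding group, Eif4h, which stimulates the eIF4A helicase, had 6, 1, 0 and 3 tags (0.0254% ± 0.0221). Eif4g2, an eIF4G relative that lacks the eIF4E-binding part, had 1, 0, 1 and 2 tags, each at a different site among 4 in its 3′UTR. One of these sites has its 41 bases at 2 places in the genome. The cap-binding protein gene Eif4e, the scaffold gene Eif4g1, the helicase gene Eif4a1 and Eif4b had no row analysed here. eIF3, the largest initiation factor, which holds the small subunit to the mRNA, had 18 tags from 7 of its 14 genes, of which 10, 3, 4 and 1 were in replicates 1 to 4. Eif3f gave 7 of these (4, 2, 1 and 0, or 0.0180% ± 0.0132), Eif3m 3, Eif3e, Eif3h and Eif3k 2 each, and Eif3g and Eif3i 1 each.

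The subunits of eIF2, which carries the initiator tRNA, were each near the lower limit of the counts. Eif2s2, its beta subunit, had 2, 0, 1 and 1 tags at 4 different sites, of which 2 lay in its 3′UTR, 1 in a coding exon and 1 lay 103.6 kb past the end of the gene. Eif2s1, Eif2s3x and Eif2s3y had 1 tag each. Eif5b, which joins the ribosomal subunits, and Eif6, which keeps them apart, also had 1 tag each. Of the 5 genes of eIF2B, the factor that recharges eIF2, Eif2b4 had 3 tags (1, 1, 0 and 1) and Eif2b3 1.

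Regulators of initiation held 11 tags from 6 of 8 genes, or 0.0326% ± 0.0366 of a replicate, with 5, 1, 5 and 0 tags. Without replicate 3 the mean was 0.0154%. Eif4enif1, which encodes the eIF4E transporter 4E-T, had 1, 0, 3 and 0 tags. The eIF4E-binding proteins Eif4ebp2 and Eif4ebp3 had 1 tag each, in replicate 1. Among the kinases that phosphorylate eIF2 under stress, Eif2ak1 (HRI) had 1, 1, 1 and 0 tags at 2 sites, and Eif2ak3 (PERK) and Eif2ak4 (GCN2) had 1 tag each. The members of the name rule outside these roles were Eif4a3, a helicase of the exon junction complex, with 1, 1, 1 and 0 tags, and Eef1akmt1, a methyltransferase for eEF1A. Both Eef1akmt1 tags lay about 25 kb past the annotated end of the gene (25.5 and 25.7 kb).

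The annotation holds 71 protein-coding genes that match the name rule. Of these, 42 had a row under their own name or at their location, and 29 had no row analysed here. The table counts tags at peaks, so a gene without a row may have had tags elsewhere. Among the roles, every gene of the eEF1B and eIF5A lists was represented by name or location, against 4 of 11 cap-binding genes and 2 of 5 eIF2B genes. Termination factors had 1 of 3 genes and modifying enzymes 1 of 5. These differences between small groups were not tested.

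Differences between replicates were tested gene by gene with an exact multinomial test of a gene's tags against the library totals, with Benjamini-Hochberg adjustment over the 533 genes with at least 10 tags. Among all genes tested, 40.9% had an adjusted p under 0.05. Only 3 factors could be tested and 2 were called, too few to set against that background. Eif1b had an adjusted exact p of 0.00884 and Eef1a2 of 0.0442, while Eif4h had 0.444. The Eef2 site, tested under its listed name Snord37, had an adjusted exact p of 3.69e-05. The Eef1a2 call was lost without replicate 1 (adjusted exact p 0.120), with library sizes from trimmed means of M values (0.136) and with totals that leave out the Bc1-like sites (0.0855), and without replicate 2 the gene fell under 10 tags. Eif1b fell under 10 tags without replicate 1, 3 or 4. The Eef2 call was lost without replicate 2 (adjusted exact p 0.124), where 17 tags remained. These tests treat tags as independent and compare libraries, not conditions.

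**Figure D3:**
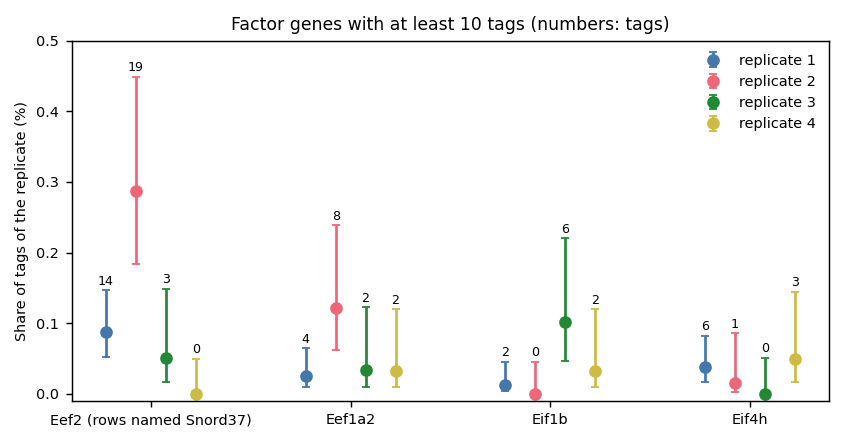
Share of a replicate's tags (y axis, %) for the 4 factor genes with at least 10 tags, with the tag count above each point and colours for replicates; bars are Wilson 95% intervals or, at 0 tags, reach up to the share of 3 tags. Eef2 and Eef1a2 were highest in replicate 2 and Eif1b in replicate 3. The intervals of the 4 replicates overlap for Eef1a2 and for Eif4h.

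The replicates in which these genes were high differed also in other genes. Erythroid markers made up 0.0250%, 0.560%, 1.28% and 0.148% of replicates 1 to 4, highest in replicate 3 as Eif1b was, also without the gene with the most tags (0.00624%, 0.121%, 0.303% and 0.0492%). Astrocyte markers were highest in replicate 1, at 0.325%, against 0.0984% to 0.151% in the others. By location, pyramidal neuron markers were 1.67%, 0.666%, 0.639% and 1.21% of replicates 1 to 4, lower in replicates 2 and 3, and interneuron markers 0.0687%, 0.0908%, 0.135% and 0.115%. The part of these cells in the factor values was not tested.

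Sites rather than genes showed how the factor 3′ ends were laid out. Of the 47 sites named for a factor, 39 (83.0%) lay in an annotated 3′UTR, against 76.5% of all listed sites, and they held 101 of the 111 tags (91.0%). Of all tags, 70.2% lay in a 3′UTR, and 85.6% of those outside the Bc1-like sites, none of which is named for a factor. One site lay in a coding exon, 1 in a noncoding exon and 6 (12.8%, against 15.3% of all) between genes. A polyA signal on the strand of the site lay within 50 bases on either side of 37 sites (78.7%), against 78.1% of all sites, and was AATAAA, as the nearest signal, in 29 and ATTAAA in 8. Upstream of the site only, it was found at 16 sites (34.0%, against 27.7% of all). Its first base stood between 22 bases upstream and 28 bases downstream of the listed position (median 2 bases upstream), so the listed positions lay around the hexamer and not at a fixed distance past it. Within the annotated gene, 21 sites (44.7%, against 40.2% of all) lay no more than 50 bases upstream of its end.

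**Figure D4:**
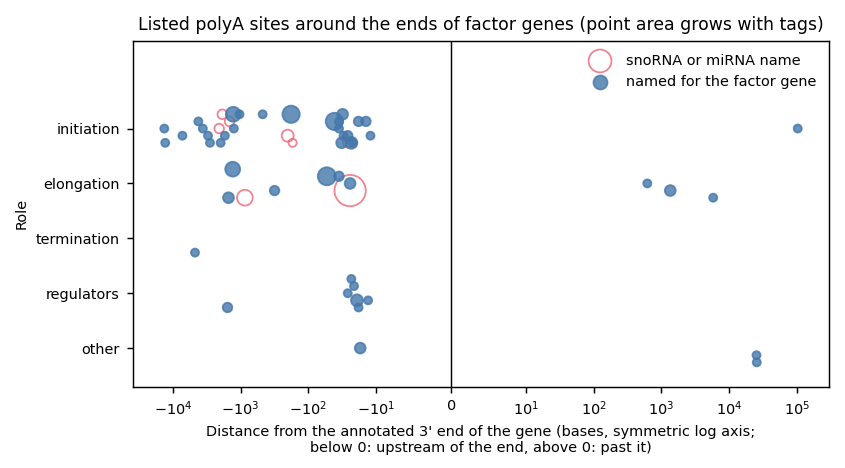
Distance of each listed factor site from the annotated 3′ end of its gene (x axis, bases on a symmetric log scale, negative upstream and positive past the end) by role; point area grows with tags, and open points carry snoRNA or miRNA names. Of the sites named for a factor, 21 lie in the last 50 bases of the gene and 6 lie 619 bases or more past its end.

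One site per gene was listed for 31 of the 36 factors, and 5 had more (13.9%, against 21.7% of all genes). Sites with tags in more than 1 replicate numbered 18 of 47 (38.3%, against 34.2% of all sites) and held 81 of the 111 tags (73.0% against 77.8%). Without replicate 1, or without replicate 3, the number was 10. Uneven use of sites between replicates could be tested, at a minimum of 10 tags, for 1 factor. Eef1a2 had a permutation p of 0.0635 (adjusted 0.414), and 4.31% of the 255 genes tested had an adjusted p under 0.05. At the minimum of 20 tags no factor could be tested. In the 3 genes with more than 1 listed site inside the gene (Eif2ak1, Eif2s2 and Eif4g2), 3 of 10 tags were at the most distal site, or 33.3%, 0%, 0% and 66.7% of the tags of these genes in replicates 1 to 4. With 1 to 3 tags per replicate this share was not measurable beyond its spread (25% ± 31.9).

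Ribosomal protein mRNAs were the most similar group by function, since they belong to the same machinery. They had 41 sites, 36 gene names and 304 tags, with 145, 103, 37 and 19 tags in replicates 1 to 4 and 0.849% ± 0.531 of a replicate. The log2 ratio of factor tags over ribosomal protein tags was −1.75, −2.16, −0.45 and −0.08, with a mean of −1.11 ± 1.00 (SD, n = 4), and ribosomal proteins had more tags in 4 of 4 replicates. The two-sided exact sign-flip permutation p was 0.13, the smallest that 4 replicates allow. With both groups taken from the annotated gene at the site, the ratio was −1.80, −1.84, −0.65 and −0.72, with a mean of −1.25 ± 0.65. Rplp1, a protein of the ribosomal stalk, held 103 of the 304 ribosomal protein tags (52, 34, 11 and 6). Without it, left out after its values were seen, the ratio by name was −1.11, −1.58, 0.05 and 0.47, with a mean of −0.54 ± 0.96 and an exact permutation p of 0.5, so the other ribosomal proteins had more tags than the factors in 2 of 4 replicates. By location and without Rplp1 the ratio was −1.42, −1.50, −0.24 and −0.48 (mean −0.91 ± 0.64), below 0 in 4 of 4. Replicates 1 and 2 had the lower ratios in each of these 4 forms.

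Other genes of translational control were described with a list of 37 genes, of which 23 had a row. Cyfip2, a partner of FMRP, had 18 tags (6, 2, 7 and 3), more than any factor under its own name. Paip1, which links poly(A)-binding protein to eIF4A and eIF3, had 9 tags (2, 1, 3 and 3), and Atf4, a transcription factor whose translation rises when eIF2 is phosphorylated, had 8 (2, 0, 3 and 3). Cpeb4 and Mcts1 had 7 each (5 for Mcts1 by location), and Larp1, which binds mRNAs with a terminal oligopyrimidine tract, had 6. Fmr1 itself had 2, 1, 1 and 1 tags. Pabpc1, the gene of the tagged protein, had 1 tag, in replicate 3. The mTOR pathway held 19 tags from 6 of 9 genes, at 0.0538% ± 0.0177 of a replicate.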

How the data were processed

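Tags were measured in 4 replicates of cTag-PAPERCLIP from CA1 neuropil. The authors deposited raw tag counts per polyA site and replicate, in a table described as neuropil tags that overlap Camk peaks. According to their methods, the PAPERCLIP tags were aligned to the genome and sites called with the CTK package; which libraries defined the peaks of this table is not given in the sources used here. Each replicate pooled mice. Submitters' processing notes name cutadapt, Novoalign and mm10; their versions, and how tags mapping to several places were treated, are not given in the sources used here. Listed gene names were used as deposited, and 1 row without a name (1 tag, 0.00288% of all) was left out.

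Each share was a gene's tags over the total of its replicate, with Wilson 95% intervals and the SD over replicates. Regions, polyA signals and genes at sites came from GRCm38 with GENCODE vM21, and copies were exact matches of the 41 bases centred on a site. No count model was fitted, since there was 1 group. Uneven shares were tested by an exact multinomial test (outcomes enumerated up to 300 tags), site usage by 10000 permutations, and ratios by exact sign flips. The multinomial and site usage tests set differences between replicates against counting error, with tags as the units. Only the sign flips use the spread between replicates. Nothing states whether pools shared animals, so all these p-values hold for these samples only. Ribosomal proteins were names starting with Rpl or Rps and a digit, or Rplp, without Rps6k kinases. Named genes were the 25 with the most tags, those called in a test, paralogue pairs, and others that stood out in small role groups. The members, roles and lists were chosen with earlier results of these data known. Alternatives changed the replicates, totals, minimum tags, pseudocount, gene naming and sites. Tools were Python 3.11.15, numpy 2.4.6, scipy 1.17.1, pandas 2.3.3 and, for trimmed means of M values, R 4.3.3 with edgeR 4.0.16.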

Additional observations from a re-analysis of the deposited data

Results flagged for a closer look

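The number of tags per replicate was flagged because replicate 1, with 16016 tags, lay far from the other 3 (5947 to 6609), with a gap of 0.934 of the whole range. The share of tags of Eef1a2 was flagged because replicate 2, at 0.121%, lay far from the other 3 (0.0250% to 0.0336%), with a gap of 0.91 of the range. Of 14 values examined in this way 2 were flagged, where chance gives about 1 in 20, or 0.7.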

How the results depend on the processing

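Of 52 values recomputed for the shares, counts and distal share, 35 stayed within the spread or within 1.5 times the count and 17 did not. The 35 include every mean share with 1 replicate left out. Those could not have left the spread, so the 35 overstate how stable the values were. Uneven site usage, with no factor testable at 20 tags, and the log2 ratios, whose tests cannot pass 0.05, are not in these numbers; the mean ratios kept their sign under each alternative run. The 24 recomputed shares of single genes were means with 1 replicate left out. With 4 replicates such a mean cannot move by more than the SD, so they say nothing about stability. Eif1b moved 2.42-fold without replicate 3, and without replicate 2 Eef2 moved 2.31-fold and Eef1a2 1.74-fold. With the annotated gene at the site in place of the listed name, the factor share was 0.482% and that of elongation factors 0.213% (0.127% without replicate 2); with either naming, added after seeing the data, they were 0.505% and 0.228%, and that of initiation factors 0.225%. Against the totals of 3′UTR sites the initiation share was 0.242%. The number of factors with uneven shares, 2 of 3 tested, was 0 to 1 when each replicate was left out in turn, 0 at a minimum of 20 tags, 1 with trimmed-mean library sizes, 2 with totals of 3′UTR sites and, added after seeing the data, 1 without the Bc1-like sites and 3 of 4 by annotated gene (35.3% of all genes tested). Sites in more than 1 replicate numbered 10 to 17 when each replicate was left out in turn, and 8 were in more than 2 replicates. A polyA signal upstream only was found at 16 sites (34.0%, against 27.7% of all), in place of 37 on either side. The cause of these changes was not tested, except that fewer genes could be tested with fewer tags. The distal share could not be computed from sites in more than 1 replicate, since no gene kept more than 1 such site. No paired analysis was possible because there was 1 group. Depth limits all of this: most factor genes had under 5 tags, and a gene with no tag in a replicate may still hold up to 0.0187% to 0.0504% of it.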
